A study of Mus musculus with 4 samples.

Results

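Cytosolic ribosomal protein genes encode the proteins of the ribosome that works in the cytoplasm. They were taken by name: protein-coding rows whose symbol begins with Rpl or Rps and a digit, leaving out S6 kinases (names beginning with Rps6k) and names with -ps, which mark copies that are often pseudogenes, and adding Rplp0, Rplp1, Rplp2 and Rpsa. The rule found 68 transcripts of 45 genes among the 7569 transcripts measured in the immunoprecipitate (IP), and 75 genes among the 12883 genes of the input. Of 79 genes in all, 41 were in both tables, 34 in the input alone and 4 in the IP alone (Rpl23a, Rpl36, Rps12 and Rps27). The rule uses names only.

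The study compared liver biopsies of wild-type mice with those of Fto knockout mice, both on a C57/Bl6 background. Fto encodes an enzyme that removes methyl groups from adenosines in RNA. From total RNA, miCLIP libraries were made with an antibody that binds methylated adenosine, next to matching input libraries. That gives 4 groups (wild-type IP, knockout IP, wild-type input, knockout input), each labelled as having 3 replicates. Nothing in the labels ties a replicate to an animal of its own, nor is age, sex or the way of making the knockout given, so the spread behind a p-value may be technical. Only the authors' comparison tables were used, with 1 mean over libraries per row, so values of single libraries and the depth per library were not analysed here.

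A ribosome is built from a small subunit, which reads the mRNA, and a large subunit, which joins amino acids. The mRNAs of ribosomal proteins belong to the TOP class: they usually begin with a C followed by a run of pyrimidines, and the kinase mTOR and the binding protein Larp1 control their translation through that run. The antibody used in miCLIP binds N6-methyladenosine (m6A) inside mRNAs and also m6Am, a methylated adenosine that in mRNAs stands at the first transcribed base, next to the cap. A liver mRNA that begins with C cannot carry m6Am at its first base.

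Annotated start sites of the members were therefore read from RefSeq promoters (build GRCm38.p6), which held 70 promoters of 59 member genes beside 21263 promoters of 17492 protein-coding genes. The annotated first base was A in 18.6% of member promoters and in 37.4% of all, and C in 21 of the 70 member promoters and in 13.8% of all. A C followed by 4 pyrimidines (each C or T, on the gene's strand), the form of a TOP start, stood exactly at the annotated start in 13 member promoters (18.6%) and in 2.21% of all. Within 20 bases before to 30 bases after the start, the same motif was present in 78.6% of member promoters and in 52.5% of all. Annotated starts are not starts measured in these livers, and these shares are descriptions. The windows below show the members on which the IP results turn, 15 bases to either side of the annotated start, with the first 5 transcribed bases in capitals.
Rps9, chr7:3704026-3704055, plus strand: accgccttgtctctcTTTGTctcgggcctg
Rps25, chr9:44407699-44407728, plus strand: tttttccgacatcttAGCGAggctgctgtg
Rpl34, chr3:130730323-130730352, minus strand: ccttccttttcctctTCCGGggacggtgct
Rpl34, other start, chr3:130730384-130730413, minus strand: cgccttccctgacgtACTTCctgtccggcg
Rpl28, chr7:4792950-4792979, plus strand: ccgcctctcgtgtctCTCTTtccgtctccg
Rps27, chr3:90213634-90213663, minus strand: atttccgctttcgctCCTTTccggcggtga
Rplp2, chr7:141447636-141447665, plus strand: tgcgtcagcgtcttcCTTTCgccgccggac
Rpl15, chr14:18270972-18271001, minus strand: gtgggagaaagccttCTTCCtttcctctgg
Rpl36al, chr12:69184053-69184082, minus strand: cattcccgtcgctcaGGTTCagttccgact
Rpl28, Rps27, Rplp2 and Rpl15 thus have an annotated TOP start, Rps9 begins inside a pyrimidine run, and Rps25 and 1 start of Rpl34 begin with A. Rpl29 is named only.

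The livers carried hepatocyte RNA, and Fto was lower in the input. All 9 hepatocyte markers were listed, with means from 293.5 to 84262 normalized counts in the authors' deposited table. Markers of Kupffer cells and macrophages (3 of 4 listed) lay at means from 9.70 to 240.5, endothelial markers (3 of 3) from 45.1 to 234.3, stellate markers (3 of 3) from 9.65 to 73.2 and red cell markers (3 of 5) from 10.3 to 220.3. The authors' deposited input table gave Fto -1.49 on the log2 scale (SE 0.27, adjusted p = 0.000352), which is the ground for reading that table as knockout over wild type, since no header gives a direction. The IP table was read the same way, on a weak correlation across 780 genes (Spearman 0.168), so all IP directions are conditional on that reading. Across all transcripts of the IP the median log2 fold change was -1.59, and directions near 0 depend on the scaling.

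In the IP, transcripts of 4 ribosomal protein genes were called lower in the knockout and none was called higher, by the authors' adjusted p under 0.05. They encode 2 small subunit proteins, Rps9 and Rps25, and 2 large subunit proteins, Rpl34 and Rpl29. A call here joins the authors' p to the sign of the fold change. The sources used here do not state which model term either belongs to, so both may not measure the same effect. Of 68 member transcripts, 48 (34 genes) had an adjusted p in the authors' deposited table, and 6 of these 48 were called lower, or 12.5%, against 3.79% of all 2347 transcripts with an adjusted p. For higher calls the background was 0.895%, and the members had 0 of 48 by the authors' p, for which the processing notes name DESeq2 without a role (3 at an unadjusted p under 0.05) and 0 by the p of fold over standard error. With 1 transcript per gene, 4 of 33 member genes were called lower (12.1%), against 3.69% of 1626 symbols. When p-values were adjusted over all transcripts with a p, in place of the authors' adjustment, 0 of 64 member transcripts were called, against 0.424% lower and 0.073% higher of all 6846. The members' means were higher than those of the table at large, with medians of 17.6 and 4.92, and the part of depth in these shares was not tested.

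Rps9 lies at the entry of the mRNA channel of the small subunit. Its 3 transcripts had means of 28.5, 24.4 and 23.2 normalized counts and log2 fold changes of -9.00 each (SE 1.95, 1.99 and 1.97, authors' deposited table). Their adjusted p-values were 0.0298, 0.0402 and 0.0281 there. Since the fold changes differ by under 0.001, the transcripts count as 1 result. In the input, Rps9 was at 0.07 (SE 0.24, mean 138.2, authors' deposited table).

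Rps25, a small subunit protein used by some viral internal ribosome entry sites, had the highest mean of the called members, 63.7. Its log2 fold change was -7.17 (SE 1.79, adjusted p = 0.0429, authors' deposited table). At a minimum mean of 50 it was the only member called. Rpl34, a large subunit protein, stood at -9.04 (SE 1.88, adjusted p = 0.0331, mean 24.3, authors' deposited table). Rpl29, another large subunit protein, known also as a heparin-binding protein, stood at -7.29 (SE 1.96, adjusted p = 0.0461, mean 14.0, authors' deposited table). In the input, Rps25 was at -0.14 (SE 0.30), Rpl34 at 0.01 (SE 0.30) and Rpl29 at -0.02 (SE 0.28, authors' deposited table).

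The size of these called falls cannot be read as a measured ratio. If the printed mean averages both groups equally and the fold lies between them, the lower group of the 6 called transcripts would hold from 0.0903 to 0.879 normalized counts. The same holds for 26 of the 68 member transcripts, whose lower group would be under 1 count. The authors' p in this table is the upper chi-square tail (1 degree of freedom) of the printed statistic, and that statistic is not the squared ratio of fold to standard error. By the p of fold over standard error, adjusted over all transcripts, 15 of the 68 member transcripts (22.1%), of 11 genes, were lower and 0 higher, against 8.01% lower and 2.81% higher of all transcripts.

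**Figure D1:**
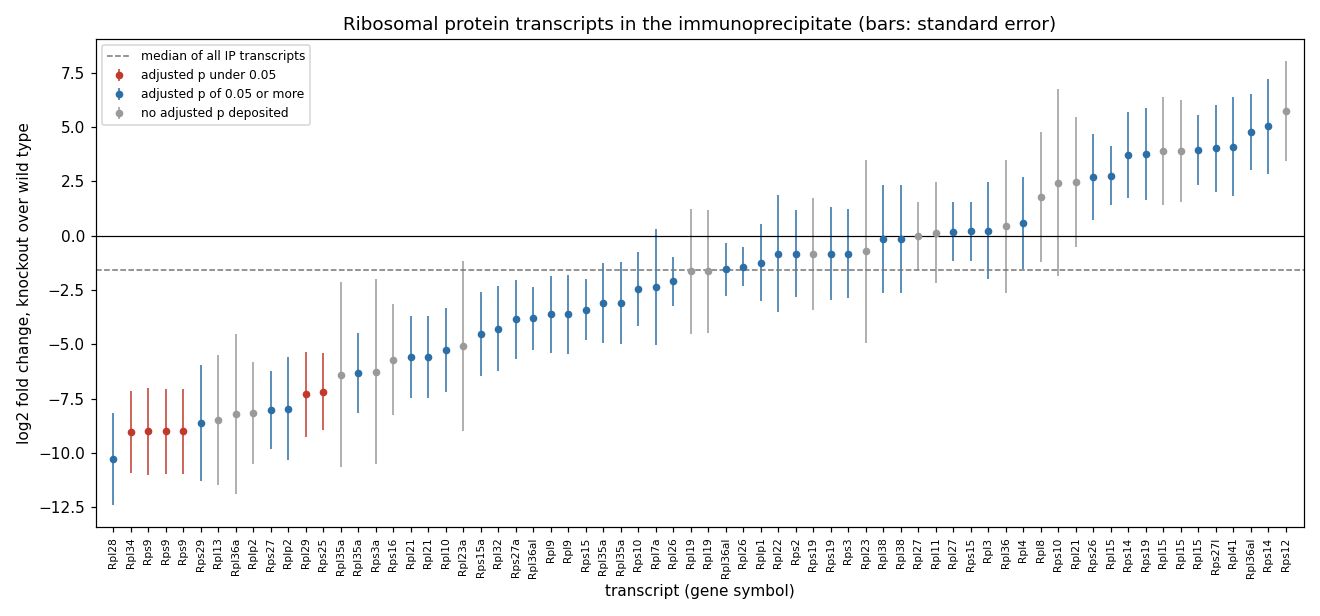
Log2 fold change (knockout over wild type, y axis) of each of the 68 ribosomal protein transcripts in the IP, ordered by value, with bars of 1 standard error. The 6 called transcripts lie between -9.04 and -7.17, among other low transcripts such as that of Rpl28 at -10.26, and 21 of the 68 lie above 0.

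Just outside the threshold lay Rps27 and Rpl28. Rps27, a zinc finger protein of the small subunit, was at -8.01 (SE 1.81, adjusted p = 0.0520, mean 26.6, authors' deposited table). Rpl28, of the large subunit, had the lowest fold change of the members, -10.26 (SE 2.12, adjusted p = 0.0522, mean 16.3), in the authors' deposited table. Rplp2, a protein of the stalk that recruits elongation factors, had transcripts at -7.95 (adjusted p = 0.0951, mean 12.1) and -8.16 (mean 17.1, no p given, authors' deposited table). Rps29, a small zinc-binding protein, was at -8.61 (SE 2.68, adjusted p = 0.115, mean 8.70) there. None of these 4 genes passed. Their standard errors ran from 1.81 to 2.68, against 1.79 to 1.99 for the called transcripts.

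At an unadjusted p under 0.05 the count grew to 14 lower transcripts of 12 genes among the 64 with a p, or 21.9%, against 8.52% of all transcripts. Higher transcripts numbered 3, or 4.69%, against 1.88%, and all 3 were of Rpl15. Among transcripts with a mean of at least 10, 13 of 45 members were lower (28.9%), against 17% of all. Beyond the 8 genes described so far these lower genes were Rpl10 (-5.25, mean 46.5), which joins the large subunit late in its assembly, Rpl35a (-6.32 in 1 of its 4 transcripts), Rps15a (-4.51) and Rpl36al (-3.79 in 1 of its 3 transcripts), with unadjusted p-values of 0.0332, 0.0160, 0.0489 and 0.0393 in the authors' deposited table.

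Rpl15, a large subunit protein, went the other way. Its 4 transcripts were at 3.93 (mean 13.3), 2.76 (mean 17.6), 3.91 (mean 2.88) and 3.90 (mean 1.99, authors' deposited table). Unadjusted p-values were 0.0481, 0.330, 0.0247 and 0.0477 in that order, and neither adjusted p that was given passed (0.222 and 0.677 for the first and the second). In the input Rpl15 was at 0.36 (SE 0.29, mean 22.4, authors' deposited table). Rps14, an RNA-binding protein of the small subunit platform, also lay high in both of its transcripts, at 3.71 and 5.03, with adjusted p-values of 0.607 and 0.363 in the authors' deposited table.

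The rest of the members spread to both sides. Of 68 member transcripts, 47 lay below 0 and 21 above (30.9%), against 29.5% above 0 among all transcripts. The members' median was -1.64 beside -1.59 for all, but at a mean of at least 10 (47 member transcripts) it was -2.45 beside -0.82. That -0.82 is a value that 842 transcripts share, as described below, so the size of the gap cannot be read closely. The large subunit had 44 transcripts of 28 genes with a median of -1.64, and the small subunit 24 transcripts of 17 genes with a median of -1.64. That likeness did not hold under other choices: at a mean of at least 10 the large subunit was lower (-3.09 against -0.82), and with 1 transcript per gene the small subunit was lower (-3.41 against -1.53). No order of the subunits can be read from the IP, and the small subunit's -0.82 is that shared value too.

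**Figure D2:**
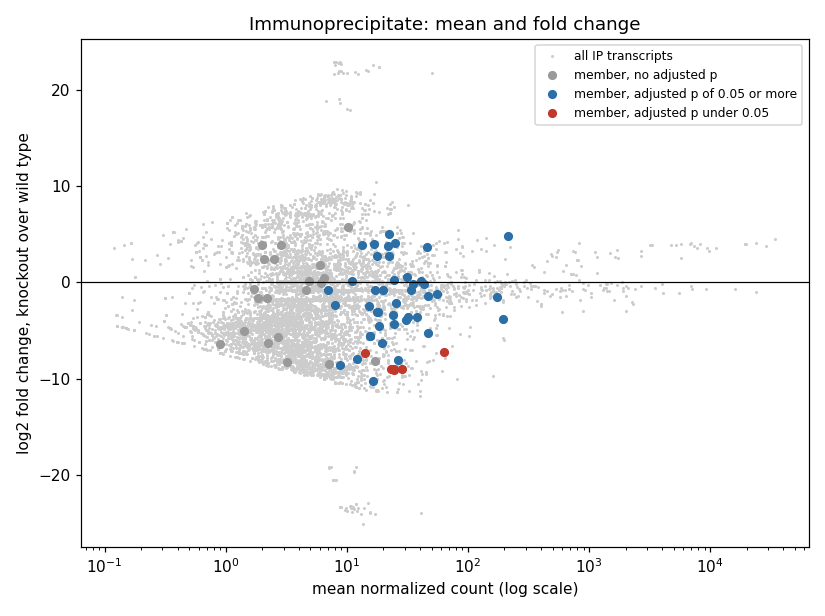
Mean normalized count (x axis, log scale) against log2 fold change (y axis) for all 7569 IP transcripts in grey and the 68 ribosomal protein transcripts in colour. The called members sit at means from 14.0 to 63.7, where the grey cloud still spans folds of many log2 units to both sides of 0.

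Transcripts of the same gene were not always alike. Of 15 genes with several transcripts, 4 had fold changes within 0.1 of each other and 6 had transcripts on both sides of 0. The widest spread was in Rpl36al, a paralog of Rpl36a, which had the 3 highest means of all members. Its transcripts stood at 4.77 (SE 1.77, mean 214.7), -3.79 (SE 1.45, mean 194.8) and -1.55 (SE 1.21, mean 173.3), with adjusted p-values of 0.281, 0.1997 and 0.557 in the authors' deposited table. No direction for the gene follows from them. Rps27l, the other paralog in the IP, which p53 induces, was at 4.03 (adjusted p = 0.275, mean 16.6, authors' deposited table). Transcript identifiers could not be matched to a second source here, and transcripts of 1 gene share reads.

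Some fold changes were values that many transcripts share. The value of -0.82 was held by 842 transcripts of the table, among them 5 of the members: 2 of Rps19, a gene mutated in Diamond-Blackfan anaemia, and those of Rpl22, Rps2 and Rps3. Rpl11 stood at 0.14, a value held by 271 transcripts. Such a value says little about the single transcript. Low means mark the other end: Rpl35a had a transcript at 0.889, Rpl23a 1 at 1.42 and Rpl23 1 at 1.72 normalized counts in the authors' deposited table. Without an adjusted p were 20 member transcripts, 16 with a p and means of up to 6.44, and 4 with no p (of Rpl13, Rpl36a, Rplp2 and Rps12). Rps12, the highest of all members at 5.74 (SE 2.30, mean 10.2, authors' deposited table), was among these 4.

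In the input, no ribosomal protein gene was called changed, and most lay slightly above 0. Of 75 genes, 54 were above 0 (72.0%) and 21 below, against 53.5% above 0 among all 12883 genes. Their median log2 fold change was 0.09, beside 0.02 for all genes, and single genes ran from -0.43 to 0.53 in the authors' deposited table. By the authors' adjusted p 0 of 75 passed in either direction, against a background of 0.0233% higher and 0.0155% lower among 12865 genes. At an unadjusted p under 0.05 there was 1 higher member (1.33%, background 1.23%) and 0 lower (background 0.979%). Standard errors of single members ran from 0.208 to 0.301. All 3 red cell markers in the table lay below 0, Hba-a1 at -0.48, Hba-a2 at -0.43 (both alpha globin genes) and Alas2, of haem synthesis, at -0.99 (SE 0.29, adjusted p = 0.443, authors' deposited table). Of the markers of other cell types, 5 of 9 for hepatocytes, 2 of 3 for Kupffer cells and macrophages, 1 of 3 for endothelium and 1 of 3 for stellate cells lay below 0. The part of these cell types in the members' values was not tested.

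The printed standard errors of the input give intervals for the printed fold changes only. For 72 of the 75 genes the 95% interval, the fold change with the normal interval of its printed standard error, lay wholly between -1 and 1 on the log2 scale. The widest bounds were -1.02 for Rps18 and 1.10 for Rpl39. The printed fold changes look shrunken, most of all at low means, so these intervals describe the shrunken values. Standard errors reached at most 0.302 across all 12883 input genes. Rps23, with a mean of 1.67, had 0.208, and Rpl4, with a mean of 334.9, had 0.220. The intervals thus give no bound on the changes before shrinkage.

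Named by the lowest p, the large subunit genes were Rpl41 at 0.52 (SE 0.25, unadjusted p = 0.0385, mean 3.33), Rpl39 at 0.53 (SE 0.29, unadjusted p = 0.0721, mean 11.7) and the stalk gene Rplp1 at 0.33 (SE 0.25, unadjusted p = 0.180, mean 120.1, authors' deposited table). The identifier printed with Rpl41 belongs to the gene Gm10076 in the reference used here, and the one printed with Rpl24 to Zbtb11, so neither row can be taken as the ribosomal protein without doubt. Small subunit genes by the same rule were Rps23, which acts in decoding, at 0.39 (unadjusted p = 0.0624, mean 1.67) and Rps14 at 0.43 (unadjusted p = 0.0961, mean 67.6, authors' deposited table). Rps6, the substrate of S6 kinases, was at 0.38 (unadjusted p = 0.144, mean 3.30), and Rps18 was at -0.43 (unadjusted p = 0.152, mean 13.7, authors' deposited table). All had an adjusted p of 0.9998 there.

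By subunit, 33 of 45 large subunit genes lay above 0 with a median of 0.10, and 21 of 30 small subunit genes with a median of 0.08. The 5 paralogs in the input were near 0 or below: Rpl22l1 at -0.01, Rpl7l1 at -0.03, Rpl36al at -0.01, Rps27l at 0.05 and Rps4l, listed under its older name Rps4y2, at -0.36 (SE 0.30, authors' deposited table). Rps19bp1, which meets the name rule but is a binding partner of Rps19 and no ribosomal protein, was at 0.09 there. Without it and both genes of doubtful identifier the median was 0.08.

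**Figure D3:**
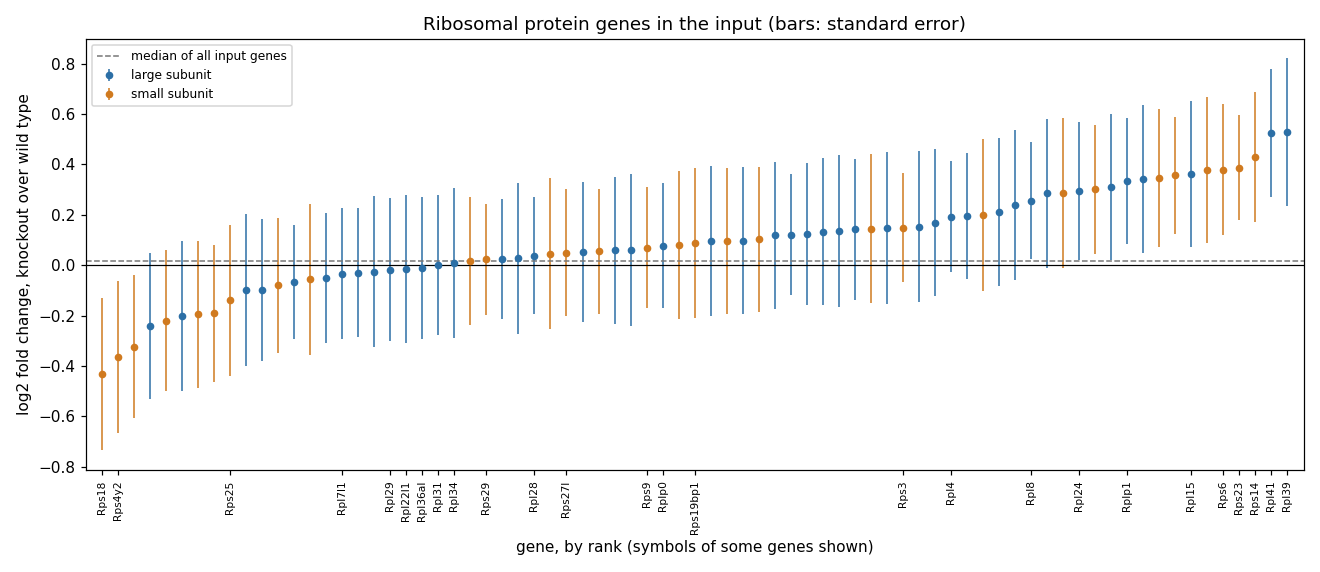
Log2 fold change (knockout over wild type, y axis) of each of the 75 ribosomal protein genes in the input, ordered by value and coloured by subunit, with bars of 1 standard error and with the names of some of the genes the text describes. All values lie between -0.43 and 0.53, and 54 of the 75 lie above 0.

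Read support differed widely between the input rows. Many reads lay behind Rpl4 (mean 334.9), Rpl8 (327.1), Rps3 (302.3) and Rplp0 (170.5), and the fewest behind Rps23 (1.67), Rpl28 (2.08) and Rps29 (2.28), in normalized counts of the authors' deposited table. These are counts per gene, not per length, and give no order of expression. Ribosomal protein genes have many processed pseudogenes in the mouse genome: RefSeq names 321 loci as such copies (symbols with -ps), up to 24 for 1 member, Rpl31. The 56 input members with a named copy had a median mean of 14.9, and the 19 without had 32.4 (Spearman -0.309 between copies and mean across the 75 genes, a description). Reads of near-identical copies could be split or dropped by the authors' counting, for which the sources used here give no rule, so counts of members with copies are uncertain.

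Fold changes of the IP and the input were then set against each other per gene, to ask whether the antibody-bound RNA differed between genotypes otherwise than the RNA level. The transcript with the highest mean stood for each gene, and 780 genes, 23 of them members, reached a mean of 10 in each table. The difference was lower in the IP for 6 of 23 members (26.1%), against 20.3% of all genes, and higher for 1 (4.35%), against 5.9%. Both shares were near the background at this minimum mean. The members past the threshold were Rpl34 (difference -9.05, SE 1.90, Benjamini-Hochberg adjusted p = 3.43e-05), Rps9 (-9.07, adjusted p = 5.83e-05), Rps25 (-7.03, adjusted p = 0.000961), Rplp2 (-7.96, adjusted p = 0.00519), Rpl35a (-6.08, adjusted p = 0.00609), Rpl10 (-5.53, adjusted p = 0.0203) and, upward, Rpl36al (4.79, adjusted p = 0.0320). The test takes both errors as independent and rests on the printed IP standard errors, which do not give the authors' p. It also takes the IP fold change as a comparison within the IP alone, which the sources used here do not state. Input fold changes look shrunken, so both sides may not share a scale. The differences past the threshold are close to the IP fold changes alone (Rps9, -9.07 against -9.00). By the authors' p in the IP, Rpl35a, Rpl10 and Rpl36al did not pass (adjusted p = 0.131, 0.184 and 0.281). The Rplp2 transcript used had no p. With a minimum mean of 50 in each table, only Rplp1 was left to test among the members and did not pass, while 7 of all 127 genes did. With no minimum, 26.8% of 41 members passed in either direction, against 10.9% of all 3935 genes. The likeness to the background thus depends on the minimum mean.

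Across the 41 genes of both tables, 20 lay below 0 in the IP and above 0 in the input, 9 below 0 in both, 9 above 0 in both and 3 above 0 in the IP alone. In percent these are 48.8, 22.0, 22.0 and 7.32, beside 35.4, 36.5, 15.6 and 12.5 for all 3935 genes of both tables. Rps27l and Rps19 had the next highest differences after Rpl36al, at 3.98 (adjusted p = 0.150) and 3.42 (adjusted p = 0.276), and neither passed.

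The level in the IP over that in the input, averaged over genotypes, was high for ribosomal protein genes. IP means were summed over a gene's transcripts and divided by its input mean. Across 3935 genes in both tables the median log2 ratio was -3.03, and across the 41 members it was 0.12. The members' median percentile was 89.1, with 35 of 41 above the middle of all genes and 20 above percentile 90. Among the 11 members and 1934 genes with an input mean of at least 50, a choice made after seeing the data, the members' median percentile was 84.0. Tables were normalized separately, so only the order among genes can be read, and genes outside the IP table are missing from it. The sources used here do not state whether the printed IP mean covers IP libraries alone.

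Members differed by a wide range on this scale. Rpl36al had the highest log2 ratio, 4.17, followed by Rpl27 at 4.02, Rpl9 at 3.17, Rpl28 at 2.97 and Rpl41 at 2.91. The sum may count reads shared by transcripts more than once, so this order is uncertain for Rpl36al (3 transcripts), Rpl27 (2) and Rpl9 (2). With the highest transcript mean per gene in place of the sum, the members' median percentile was 88.8. The Rpl41 ratio rests on the input row of doubtful identifier. At the low end stood Rpl8 at -5.77, Rps3 at -3.92 and Rpl23 at -3.77, and Rpl4 at -3.41. Rpl8, Rps3 and Rpl4 were also among the members with the highest input means. Over all 41 members the median summed IP mean was 24.6 and the median input mean 22.4, against 5.97 and 48.4 for all genes, so the members had both higher IP means and lower input means. The part of the low input means in the ratio was not tested.

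**Figure D4:**
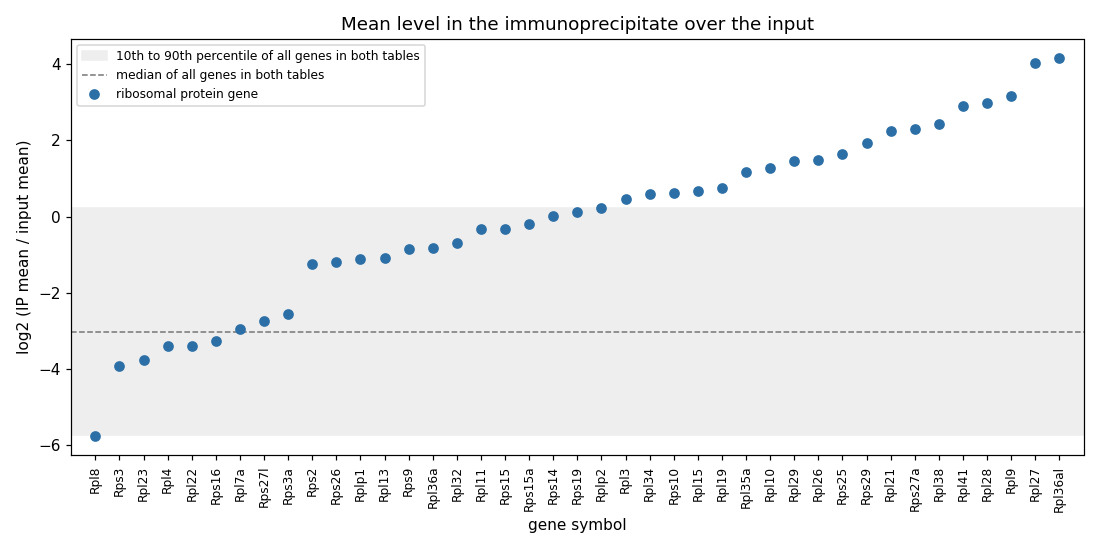
Log2 ratio of the summed IP mean to the input mean (y axis) for the 41 ribosomal protein genes in both tables, ordered by value. The grey band spans the 10th to the 90th percentile of all 3935 genes, the dashed line is their median of -3.03, and 20 of the 41 members lie above the band.

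Genes related to ribosomal proteins by function gave other values of this ratio. The 25 genes of mitochondrial ribosomal proteins, which build the separate ribosome of mitochondria, had a median percentile of 57.9. For 9 ribosome biogenesis genes it was 58.7, for 10 other TOP mRNAs and translation factors 48.0, and for 6 regulators of TOP translation 28.3. Differences between these lists were not tested.

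In the genotype comparison of the IP only some transcripts of those lists had an adjusted p and could be called. Of 35 transcripts of mitochondrial ribosomal proteins 14 had one, and 1 of these was called lower (7.14%, beside the 3.79% of all transcripts), that of Mrpl52 at -8.36 (SE 1.26, adjusted p = 0.000452, mean 15.5), and 0 higher, with a list median of -0.82 in the authors' deposited table. Other TOP mRNAs and translation factors had 0 called of the 12 (among 18 transcripts) with an adjusted p. In this list Gnb2l1, which encodes Rack1 on the small subunit, was at -4.88 (SE 1.65, adjusted p = 0.106, mean 30.6, authors' deposited table). Eef2, of the same list, was at 7.06 (SE 2.45, adjusted p = 0.637, authors' deposited table). For ribosome biogenesis genes only 3 of 15 transcripts had an adjusted p and 0 were called. Here the rRNA methyltransferase gene Fbl stood at -8.17 (SE 2.61, unadjusted p = 0.0730) and Rrp12 at 7.04 (SE 3.25, unadjusted p = 0.0779, authors' deposited table). Regulators of TOP translation had 0 called of the 6 (among 9 transcripts) with an adjusted p. The S6 kinase gene Rps6kb2 was at -6.33 (SE 1.93, adjusted p = 0.0971) and Cnbp at 8.31 (SE 3.22, adjusted p = 0.299, authors' deposited table). By unadjusted p under 0.05, 4 of 32 mitochondrial transcripts with a p were lower (12.5%), beside the 8.52% of all, and the other 3 lists held 1 of 17, 0 of 15 and 1 of 9, all lower. Above 0 lay 16 of the 35 mitochondrial transcripts and 8 of the 18 of other TOP mRNAs and translation factors. The same held for 7 of the 15 biogenesis transcripts and 4 of the 9 regulator transcripts, beside 29.5% of all transcripts. Few transcripts lie behind these shares, and whether they differ from those of all transcripts was not tested. The mitochondrial list median of -0.82 is the value that 842 transcripts share.

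In the input, 0 genes of these 4 lists were called, and medians lay between 0.00 for other TOP mRNAs (21 genes) and 0.03 for ribosome biogenesis genes (27 genes). The mitochondrial list had 39 of 74 genes above 0 (52.7%, median 0.01), and the regulators 8 of 15 (median 0.01). The biogenesis gene Tsr1, needed for small subunit maturation, was at 0.75 (SE 0.28, unadjusted p = 0.00646) and was the only one of these genes with an unadjusted p under 0.05 in the authors' deposited table.

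Introns of many ribosomal protein genes encode small nucleolar RNAs (snoRNAs), which guide rRNA modification. Families with a known host among ribosomal protein genes had 57 IP copies, of which 49 had an adjusted p. The list also took in families known from Rpl13a, Rpl30 and Rps13, which are not among the members. Called lower were 3 (6.12%, beside the 3.79% of all transcripts) and higher 0: SNORA7, whose family is known from Rpl32, at -10.04 (adjusted p = 6.26e-07), SNORA3 of Rpl27a at -9.69 (adjusted p = 0.0309) and SNORD83 of Rpl3 at -11.11 (adjusted p = 0.0331, authors' deposited table). The host transcripts Rpl32 and Rpl3 stood at -4.27 (SE 1.97, adjusted p = 0.268) and 0.23 (SE 2.24) in the IP of the authors' deposited table. By unadjusted p under 0.05, 12 of 51 copies were lower (23.5%, beside 8.52%). Which copy lies in which host was not checked, since the table gives family names only.

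Fold changes in the IP were last set beside the annotated first base, for the 27 members with 1 RefSeq promoter each. Medians were -1.42 for 5 genes starting with A, -2.45 for 9 with C, -0.77 for 10 with G and -8.48 for 3 with T. Ranges overlapped, since A starts ran from -7.17 (Rps25) to 5.74 (Rps12) and C starts from -10.26 (Rpl28) to 2.76 (Rpl15). No test was made of the start base.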

How the data were processed

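STAR, bedtools 2.25.0, DESeq2 and the mm10 build appear in the submitters' processing notes without a stated role. Per the file headers, the authors deposited for each row a mean normalized signal (scaled read counts averaged over libraries), a log2 fold change with its standard error, a test statistic (a score), a p-value and an adjusted p. The sources used here give no counting rule, model or filter, and depth per library is unknown. Members and lists were chosen with earlier results of these data known. Named genes were Fto, all called members, the 8 of lowest p, the 5 of highest and 3 of lowest mean per table, the 3 highest and 3 lowest differences, all paralogs, and up to 4 genes of lowest p per other list, of which the text prints those its results turn on. A gene that this rule names is not reported here. Differences between IP and input fold changes were tested with a normal test (2-sided, Benjamini-Hochberg over 780 genes) in scipy 1.17.1 under Python 3.11.15. The script was first tested on simulated data. Those data drew their errors from the printed standard errors, so they could not check whether these standard errors hold. In the IP, all 6648 p-values with a statistic of at least 0 equalled the chi-square tail. All 75 input identifiers matched the reference, 4 under another symbol. Alternatives changed the adjustment, p, minimum mean (10 or 50), centring, transcripts per gene and member rule.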

Additional observations from a re-analysis of the deposited data

Results flagged for a closer look

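For 7 ribosomal protein genes the printed IP and input fold changes differed past the threshold in the test of their difference. That is 30.4% of the 23 tested, beside 26.2% of all 780 genes, so the members' share was near that of all genes at a minimum mean of 10. With no minimum mean it was 26.8% of 41 members, beside 10.9% of all 3935 genes. The log2 difference, IP minus input, was -9.05 for Rpl34, -9.07 for Rps9, -7.03 for Rps25, -7.96 for Rplp2, -6.08 for Rpl35a, -5.53 for Rpl10 and 4.79 for Rpl36al. Rpl36al has other transcripts at nearly the same mean on the other side of 0 in the IP. Of these 7 genes, only Rpl34, Rps9 and Rps25 were called in the IP by the authors' adjusted p. Input fold changes look shrunken, and these differences are close to the IP fold changes alone. With the IP sign turned 7 members passed as well, so the input added little to this test.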

How the results depend on the processing

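The count of 6 IP transcripts called lower became 0 with p-values adjusted over all transcripts with a p, 15 by fold over standard error and 1 at a mean of at least 50. The 4 genes called lower became 0, 11 and 1 under the same settings. Both counts were within 1.5 times at a mean of at least 10, without paralogs and with 1 transcript per gene (4). The 0 calls in the input became 1 at an unadjusted p under 0.05. The 7 of 23 members past the difference test (30.4%, all genes 26.2%) became 0 with a minimum mean of 50 in each table, where 1 was tested, and 11 of 41 with no minimum (26.8%, all genes 10.9%). They numbered 7 with the IP sign turned (all genes 27.1%) or each table centred (all genes 22.8%). The members' IP median of -1.64 was -2.45 at a mean of at least 10, -2.35 with 1 transcript per gene, -0.052 minus the median of all transcripts, -2.40 without fold changes shared by 20 or more transcripts and -1.87 without paralogs. The members' median percentile of IP over input was 84.0 at an input mean of at least 50, against 89.1. Large minus small subunit in the IP, -0.01 as reported, was -2.27 at a mean of at least 10 and 1.87 with 1 transcript per gene. Where counts fell because fewer rows were tested, the setting itself does that. For the others the cause was not tested. The other 24 settings tried left median fold changes within 0.1, percentiles within 5 points and counts within 1.5 times. No paired analysis was possible because the tables hold no values of single replicates, and no replicate could be left out. Of the 68 IP transcripts, 5 have a mean of at least 50, which limits how far single fold changes can be read.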
